A study of Mus musculus with 2 samples.

Results

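The cells described here are tendon fibroblasts (tenocytes) of mouse limb muscle marked by Angptl7, Kera and Wif1. They numbered 362 of the 10891 cells kept from 2 single-cell RNA-seq libraries. Members were chosen on measured counts of unique molecular identifiers (UMIs, each standing for 1 captured transcript). Cells with at least 500 detected genes, at most 10% mitochondrial UMIs, and under 2 UMIs each of Ptprc (a leukocyte gene) and Cdh5 (an endothelial gene) were considered. A cell was a member when it had a UMI of at least 3 of the 5 tenocyte genes Angptl7, Fmod, Wif1, Kera and Bmpr1b, and when these outnumbered the detected genes among Col22a1, Thbs4, Tac1, Col11a1 and Edil3, 5 genes of the fibroblasts of the muscle-tendon junction. The rule gave 171 members of 5437 kept cells in the DMSO library and 191 of 5454 in the MVC library.

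The study asked whether the drug Maraviroc (MVC) lowers cellular senescence in aging skeletal muscle. One library came from MVC-treated mice and 1 from mice given DMSO as the vehicle. By the study's methods the mice were aged C57BL/6 animals that received intraperitoneal injections every 2 days, and the experiment that the single-cell work appears to belong to used 10 mg/kg of MVC for 3 months from an age of 18 months. Live mononuclear cells were sorted from enzymatically digested limb muscle. The number of mice behind each library and the amount of tendon left on the muscles are not given in the sources used here. With 1 library per treatment, treatment, mice, dissection and droplet run cannot be told apart, no p-value is given for MVC against DMSO, and every 95% interval below covers counting error only.

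Tenocytes build and maintain the parallel collagen fibrils that carry force from muscle to bone. The transcription factors Scx (scleraxis) and Mkx (Mohawk) direct their programme, Tnmd (tenomodulin) is a membrane protein of mature tendon, and type I collagen, encoded by Col1a1 and Col1a2, is the main fibril protein. Small leucine-rich proteoglycans such as Fmod (fibromodulin), Kera (keratocan) and Dcn (decorin) bind the fibrils and regulate their diameter. Of the other genes that chose the members, Angptl7 encodes a secreted angiopoietin-like protein, Wif1 a secreted inhibitor of Wnt ligands and Bmpr1b a receptor for bone morphogenetic proteins (BMPs). Junction fibroblasts lie where muscle fibres insert into tendon and make Col22a1, a collagen restricted to tissue junctions.

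The genes that chose the members lie apart in the mouse genome (GRCm38, GENCODE M21 gene bounds). Fmod is at chr1:134037254-134048277, Angptl7 at chr4:148495183-148500460 on the minus strand, Kera at chr10:97606879-97613692, Wif1 at chr10:121033960-121100650 and Bmpr1b at chr3:141837136-142169425 on the minus strand. RefSeq promoter windows were found for 11 of the 13 genes sought. The windows below are the 250 bases before the annotated start of Angptl7 and Fmod, which chose the members, and of Tnmd and Chad, tendon genes that were higher in the MVC library, so that their upstream sequence can be read beside the values that follow. Capitals mark each E-box (CANNTG, a palindromic motif searched on both strands), the motif bound by basic helix-loop-helix factors such as Scx.
Angptl7: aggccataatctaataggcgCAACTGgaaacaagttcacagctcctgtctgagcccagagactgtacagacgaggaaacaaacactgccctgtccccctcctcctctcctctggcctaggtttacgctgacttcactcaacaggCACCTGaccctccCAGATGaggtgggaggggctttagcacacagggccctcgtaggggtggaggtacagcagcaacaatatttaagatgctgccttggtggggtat
Fmod: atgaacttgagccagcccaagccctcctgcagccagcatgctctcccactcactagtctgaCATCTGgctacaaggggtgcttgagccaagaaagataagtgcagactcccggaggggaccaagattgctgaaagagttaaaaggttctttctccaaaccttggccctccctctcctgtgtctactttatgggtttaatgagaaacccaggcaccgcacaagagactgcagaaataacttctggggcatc
Tnmd: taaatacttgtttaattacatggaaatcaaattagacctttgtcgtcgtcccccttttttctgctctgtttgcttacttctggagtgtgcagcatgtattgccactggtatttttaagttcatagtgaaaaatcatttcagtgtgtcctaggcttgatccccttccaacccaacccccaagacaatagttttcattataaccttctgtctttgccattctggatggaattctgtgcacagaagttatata
Chad: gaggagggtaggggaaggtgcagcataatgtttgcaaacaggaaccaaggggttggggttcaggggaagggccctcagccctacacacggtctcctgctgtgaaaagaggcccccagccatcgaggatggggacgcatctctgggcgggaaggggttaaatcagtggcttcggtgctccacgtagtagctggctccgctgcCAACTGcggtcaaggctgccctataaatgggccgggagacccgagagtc
The windows are chr4:148500463-148500712 (minus strand), chr1:134037004-134037253, chrX:133850758-133851007 and chr11:94564797-94565046 (plus strand) of GRCm38.p6. Angptl7 held 3 E-boxes, of which the nearest began 93 bases before the start, Fmod held 1 (189 bases before) and Chad 1 (49 bases before). Tnmd held 0 in this window. An E-box occurs in 66.2% of the 32851 promoter windows of this length, so its presence does not set these genes apart. Chad also held a TATAAA box 28 bases before its start, a motif found on either strand in 12.4% of the windows.

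The counts behind the members were deep for single cells. They held 1551463 UMIs in the DMSO library and 1693192 in the MVC library, with a median of 8519 UMIs and 2517 genes per cell in DMSO and of 8351 UMIs and 2552 genes in MVC. Over all kept cells the median UMI counts were 5802 and 5195. Mitochondrial UMIs took a median of 1.78% and 2.13% of a member's UMIs. Simulated doublets marked 4 DMSO and 8 MVC members. The libraries shared 9 cell barcodes, of which 8 were kept cells in both, and 0 barcodes were members in both.

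The members carried the defining genes of tendon, which the rule did not use. All 9 core tendon markers (Scx, Tnmd, Mkx, Comp, Chad, Cilp2, Tnc, Col1a1 and Col1a2) had UMIs in both libraries. The endothelial cells of both libraries also had UMIs of all 9, so presence alone does not set the members apart. Levels are given in CPM, the UMIs that a gene took of every 1000000 UMIs when the cells of 1 group in 1 library were pooled. The summed core tendon level was 3697 CPM in DMSO and 7079 CPM in MVC. It was 3004 and 5917 CPM in junction fibroblasts, 1141 and 1529 CPM in fibro-adipogenic progenitors and 304 and 379 CPM in endothelial cells. Markers of types outside tendon summed to lower levels, and part of them were at 0. Endoneurial fibroblast markers summed to 150 and 193 CPM over 6 genes with 2 and 1 at 0. Schwann markers summed to 88.3 and 112 CPM over 8 genes with 2 and 1 at 0, against 33.4 and 77.1 CPM in junction fibroblasts. Myogenic markers summed to 99.3 and 60.2 CPM over 5 genes with 2 at 0 in each library, and endothelial markers to 99.9 and 69.7 CPM over 5 genes with none at 0. Cartilage and bone markers summed to 5.80 and 5.32 CPM over 6 genes with 3 at 0 in each library, perineurial markers to 30.3 and 21.3 CPM over 7 genes with 4 and 3 at 0, and mural markers to 56.7 and 76.8 CPM over 5 genes with none at 0. Immune markers summed to 9.02 and 33.1 CPM over 6 genes, of which C1qa was at 0 in DMSO, and red blood cell markers to 3.22 and 14.2 CPM over 4 genes, of which 3 were at 0 in DMSO. The 8 markers of fibro-adipogenic progenitors (FAPs), the Pdgfra-positive mesenchymal cells of muscle, summed to 561 and 753 CPM, with none at 0. Their part in the differences between the libraries was not tested beyond the values without 21 cells given further on. Of the tendon sheath markers, Prg4 (lubricin) was at 4387 CPM in DMSO and 4050 CPM in MVC and Has1 at 295 and 142 CPM, while Tppp3 (14.2 and 23.0 CPM) and Cd55 (9.67 and 17.1 CPM) were low. The sheath markers summed to 4705 and 4232 CPM, mostly Prg4, which in DMSO was above the core tendon sum. Their sum was 3201 and 1926 CPM in junction fibroblasts and 3029 and 2135 CPM in FAPs. The tenocyte name follows the core markers, and whether part of the members came from the sheath was not tested.

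Among the genes that chose the members, Fmod was detected in all members of both libraries. Its level was 5889 CPM in DMSO and 7417 CPM in MVC. Angptl7 was detected in 98.8% of DMSO and 91.1% of MVC members, at 3428 and 2711 CPM. The other 3 genes marked only part of the cells. Wif1 was detected in 61.4% and 52.4% of members, at 335 and 260 CPM. Kera was detected in 46.8% and 66.5%, at 202 and 741 CPM. Bmpr1b was detected in 67.8% and 75.9%, at 466 and 524 CPM. These values chose the cells and are a description without a test. Wif1 was the gene of the 5 with the least UMIs outside the members. It had 1 UMI in the junction fibroblasts of DMSO and 0 in those of MVC, and 3 in the FAPs of each library. Angptl7 was not limited to the members, with 2187 CPM in the DMSO and 326 CPM in the MVC junction fibroblasts.

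Of the junction genes, Thbs4 (thrombospondin 4, an adhesive matrix protein of tendon and muscle) did not separate members from junction fibroblasts. It was detected in 99.4% of DMSO and 99.0% of MVC members, at 8417 and 7518 CPM, against 10507 and 9066 CPM in junction fibroblasts and 197 and 190 CPM in FAPs. Col22a1 was nearly absent from members, with 11 UMIs in DMSO and 1 in MVC, against 138 and 553 UMIs in junction fibroblasts.

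The threshold cut through a continuous range. In DMSO, 74 members had 3 tenocyte genes, 66 had 4 and 31 had all 5. In MVC the numbers were 64, 90 and 37. Just outside, 59 DMSO and 29 MVC cells had 2 tenocyte genes and fewer junction genes, and 28 and 22 cells had at least 3 tenocyte genes and as many junction genes. A further 3 DMSO and 13 MVC cells met the tenocyte criteria but had 2 or more UMIs of Ptprc or Cdh5.

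Members took a similar share of each library. They made up 3.15% of DMSO cells (exact 95% interval 2.70 to 3.64%) and 3.50% of MVC cells (3.03 to 4.02%), a difference of 0.357 percentage points with an interval from -0.318 to 1.03. The interval held 0, and the sign turned (-0.197 points) when 2 tenocyte genes sufficed. Whether it held 0 depended on the setting. When each cell was thinned to 2000 UMIs in 1 draw before the rule, the difference was 0.841 points (0.170 to 1.53), when 4 genes were needed it was 0.544 points (0.0102 to 1.08), and with a stricter cell filter it was 0.816 points (0.0334 to 1.61).

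Single members differed widely from one another. The middle member by Fmod had 5320 CPM in DMSO and 7326 CPM in MVC, and the 10th and 90th percentiles were 1732 and 11029 CPM in DMSO and 2762 and 12581 CPM in MVC. Prg4 spread further, from 346 to 9280 CPM in DMSO and from 159 to 9165 CPM in MVC, with medians of 2846 and 2679 CPM. For Tnmd the median member stood at 164 CPM in DMSO and 649 CPM in MVC, and the 10th percentile was 0 in DMSO and 74.3 CPM in MVC. Comp showed the same shift of the whole range, with medians of 466 and 1218 CPM and 10th percentiles of 0 and 209 CPM. The ranges of single cells overlapped between the libraries for each of these genes.

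**Figure D1:**
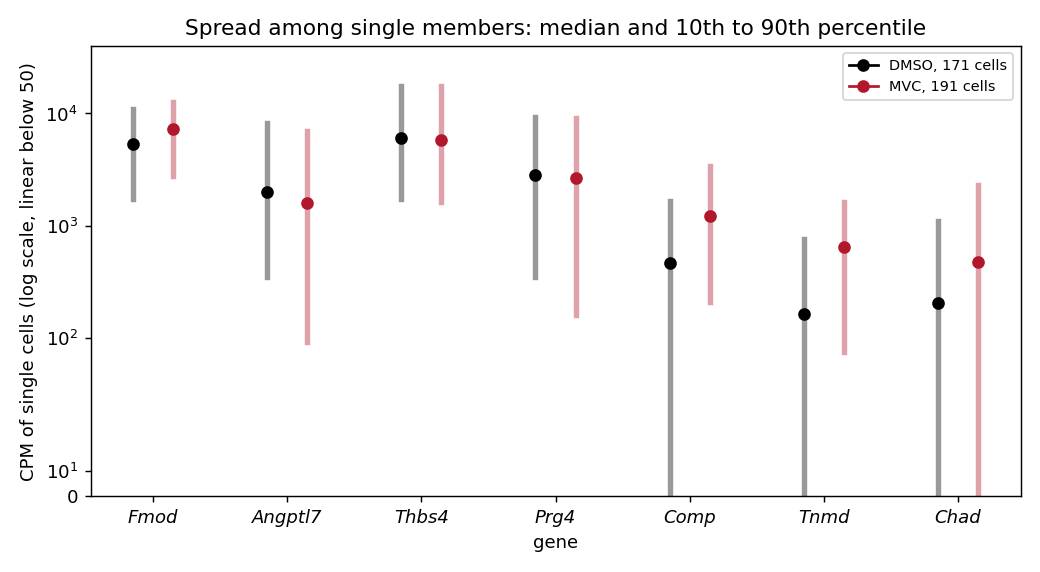
Points give the median CPM of single members and bars the 10th to 90th percentile for 7 genes (x axis) in the DMSO library (black, 171 cells) and the MVC library (red, 191 cells), on a y axis that is logarithmic above 50 CPM and linear below. The ranges overlap for every gene, while the MVC medians of Comp, Tnmd and Chad lie above those of DMSO.

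The members shared the core tendon genes with junction fibroblasts, and these genes set both apart from FAPs. Junction fibroblasts (at least 3 junction genes, outnumbering the tenocyte genes) numbered 126 in DMSO and 172 in MVC. FAPs (Pdgfra with at least 2 of Ly6a, Dpp4, Cxcl14, Smoc2, Pi16 and Col15a1, and under 3 genes of either tendon list) numbered 969 and 1073. UMIs were summed per group and library and compared in an edgeR quasi-likelihood fit with the library as a block. A gene was called at a Benjamini-Hochberg adjusted p under 0.05 and a fold of at least 2. The choosing genes came from a clustering of these same cells in which all genes took part, so the calls are used here as a rule of size and reproducibility over both libraries, and no p-value is printed. Against junction fibroblasts 296 of 10440 genes were called higher (2.84%) and 250 lower (2.39%). Against FAPs 800 of 10433 genes were called higher (7.67%) and 897 lower (8.60%). Without the block the calls against junction fibroblasts fell to 171 higher and 147 lower.

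Of the 9 core tendon genes 7 were called higher than in FAPs and 1, Comp, higher than in junction fibroblasts. Chad (chondroadherin, a collagen-binding leucine-rich protein) was at 425 CPM in the DMSO and 926 CPM in the MVC members, against 247 and 522 CPM in junction fibroblasts and 0.275 and 2.62 CPM in FAPs. Comp (cartilage oligomeric matrix protein, which binds collagen) was at 788 and 1539 CPM in members, 279 and 679 CPM in junction fibroblasts and 19.9 and 32.7 CPM in FAPs. Both genes were highest in members in each library. Tnmd was at 289 and 785 CPM in members, 206 and 651 CPM in junction fibroblasts and 2.75 and 4.61 CPM in FAPs. Scx was at 41.9 and 82.7 CPM in members and at 50.1 and 155 CPM in junction fibroblasts, while the FAPs held 0 and 5 UMIs. Type I collagen did not separate the 3 groups, as Col1a1 was at 318 and 656 CPM in members, 379 and 1315 CPM in junction fibroblasts and 376 and 527 CPM in FAPs.

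**Figure D2:**
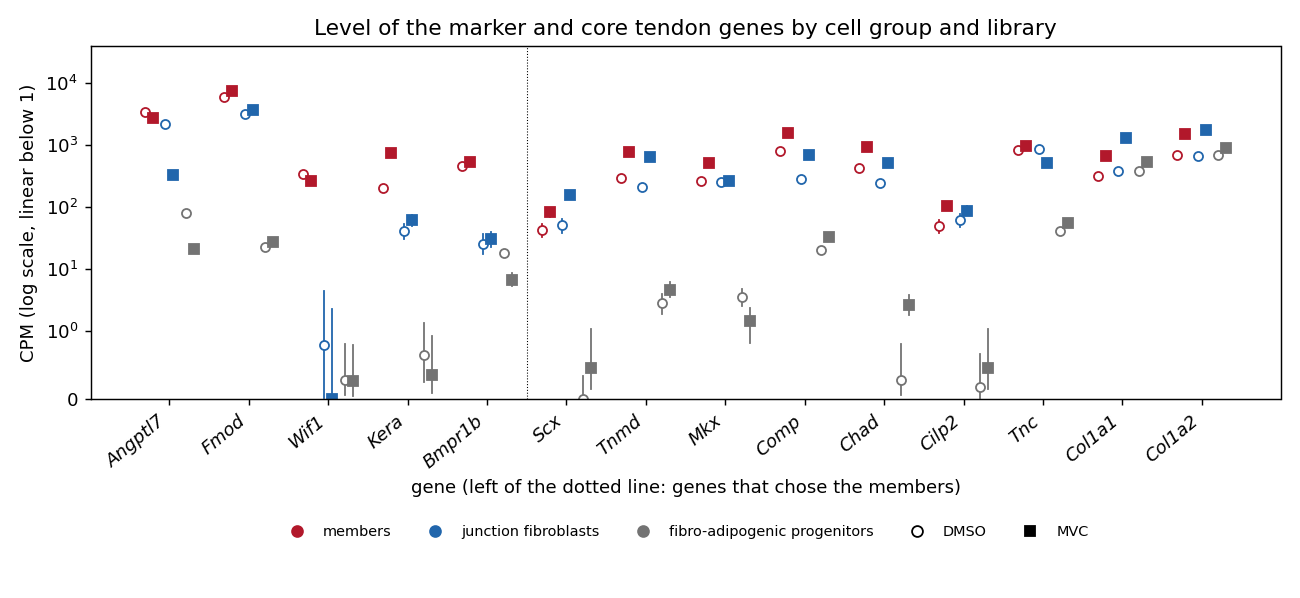
CPM (y axis, logarithmic above 1 and linear below) of the 5 genes that chose the members and the 9 core tendon genes (x axis) in members (red), junction fibroblasts (blue) and FAPs (grey), with open circles for DMSO, filled squares for MVC and bars for 95% counting intervals. The FAPs lie below both tendon groups in both libraries for every gene except Wif1, Col1a1 and Col1a2, and Wif1 is near 0 outside the members.

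The genes higher in members than in junction fibroblasts included secreted regulators of signalling. Sox2ot, a long noncoding transcript that overlaps Sox2, was at 144 and 120 CPM in members (DMSO and MVC) against 2.39 and 1.85 CPM, a fitted log2 fold of 6.07 (SE 0.30). Dkk2, a secreted modulator of Wnt receptors, was at 87.7 and 99.8 CPM against 3.98 and 6.79 CPM. Of the listed antagonists, Chrdl1 (BMP) was at 194 and 204 CPM against 41.4 and 68.5 CPM and Sfrp2 (Wnt) at 31.6 and 80.3 CPM against 0.795 and 14.2 CPM. In MVC members 66.2% of the Sfrp2 UMIs were in 3 cells. In all, 3 of 9 Wnt antagonists tested were called higher and 0 lower. Receptors and binding proteins were also among them. Lepr, the leptin receptor, was at 477 and 292 CPM against 36.6 and 22.2 CPM, and Unc5c, a netrin receptor, at 96.7 and 109 CPM against 10.3 and 1.85 CPM. Igfbp5, which binds insulin-like growth factors, was at 732 and 1364 CPM against 90.7 and 102 CPM, and Igfbp3 and Igfbp6 were called higher as well, so that 3 of 9 genes of the insulin-like growth factor axis were higher and 0 lower. Clu (clusterin, an extracellular chaperone) was at 243 and 281 CPM against 32.6 and 29.0 CPM. The remaining genes that the naming rule gave on this side were Gm765, Kcnip4, B830012L14Rik, Stk32a and Anxa8, with fitted log2 folds from 3.11 to 4.86.

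Matrix genes moved in both directions between members and junction fibroblasts. Postn (periostin, a matrix protein of growing and loaded connective tissue) had 0 CPM in DMSO members and 1.77 CPM in MVC members, against 126 and 632 CPM in junction fibroblasts. Col4a1 and Col4a2, which encode basement membrane collagen, were lower in members, with Col4a1 at 183 and 128 CPM against 775 and 584 CPM and Col4a2 at 72.2 and 67.3 CPM against 346 and 344 CPM. Of 17 network and other collagens tested 4 were lower (Col13a1, Col18a1, Col4a1 and Col4a2) and 1 higher (Col23a1). Fn1 (fibronectin) was lower too, at 430 and 369 CPM against 896 and 1362 CPM. On the other side, Dcn was at 19082 CPM in DMSO members against 9195 CPM, and Fbln1 (fibulin 1) at 587 and 607 CPM against 169 and 128 CPM. Among the 12 small leucine-rich proteoglycans tested, Dcn was called higher and Aspn (asporin) lower. Sparcl1, Tnfrsf21, Gpr176, Kirrel3, Kctd16, Gm525 and Ctla2a were the other genes named as lower, with fitted log2 folds from -6.64 to -3.30.

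Against FAPs the members were higher in most small leucine-rich proteoglycans and lower in network collagens and in part of the chemokines. Of 12 small leucine-rich proteoglycans 7 were higher (Chad, Prelp, Omd, Ecm2, Aspn, Optc and Ogn) and 2 lower (Podn and Lum). Prelp was at 1606 and 1396 CPM against 243 and 231 CPM. Of 16 network and other collagens 10 were lower, among them 6 chains of collagen IV, and 2 were higher. Of 34 adhesive and elastic matrix genes 11 were higher, among them Comp, Mfap4 and Emilin1, and 10 lower. Among the lower ones, Eln (elastin) was at 11.6 and 11.8 CPM against 107 and 84.9 CPM and Fbn1 (fibrillin 1) at 117 and 82.7 CPM against 641 and 864 CPM. Chemokines and cytokines were lower for 7 of 15 genes tested and higher for 0. Genes outside the lists with large folds on the higher side included Kcnma1, the large-conductance calcium-activated potassium channel (2228 and 2595 CPM against 52.7 and 27.3 CPM), Ccdc3, a secreted protein (535 and 741 CPM against 7.52 and 9.50 CPM), Ecrg4 (314 and 421 CPM against 9.08 and 5.88 CPM) and Sema3a, a repulsive guidance molecule (415 and 465 CPM against 10.6 and 10.0 CPM). S100a5, Unc5c, Cacnb2 and Ggta1 were also named as higher, and Pde11a, Grm8, Ptx3, AW112010, Calcrl, Pgf, Tmem178b and Lamb1 as lower.

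Within the members, tendon matrix genes were higher in the MVC than in the DMSO library. Among 4462 genes with at least 100 UMIs over both libraries, 343 (7.69%) were at least 1.5 times higher in MVC and 306 (6.86%) at most 1/1.5 of DMSO, and the median log2 ratio over all of them was -0.01. Of the 9 core tendon genes, 8 were past the fold on the higher side and 0 on the lower, with a median log2 ratio of 0.97. All 9 counting intervals lay above 1. Tnmd had 449 UMIs in DMSO and 1329 in MVC, a ratio of 2.71 (95% interval 2.44 to 3.03). Scx had 65 and 140 UMIs (ratio 1.97, 1.46 to 2.69) and Mkx 403 and 866 UMIs (1.97, 1.75 to 2.22). The 3 genes were thus higher by more than counting error. Of the MVC UMIs of Mkx, 28.8% were in 3 cells. Without the 3 highest cells of each library its log2 ratio was 0.77, with a ratio interval of 1.49 to 1.96. Comp was higher by a ratio of 1.95 (1.82 to 2.09), Chad of 2.18 (1.99 to 2.39) and Cilp2, a matrix protein of cartilage and tendon, of 2.16 (1.64 to 2.87). Type I collagen was higher by 2.06 (1.85 to 2.30) for Col1a1 and by 2.18 (2.03 to 2.34) for Col1a2. Tnc (tenascin C), at 834 and 969 CPM, had a ratio of 1.16 (1.08 to 1.25), which did not reach the fold.

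The shift was also seen in the number of cells with a UMI at equal depth. Each cell was thinned to 2000 UMIs, which left out 1 DMSO and 3 MVC members. Tnmd was then detected in 32.9% of DMSO and 67.0% of MVC members, a difference of 34.1 percentage points (23.9 to 43.2), and without thinning in 69.6% and 92.7%. Comp was detected in 55.9% and 82.4% (difference 26.6 points, 17.1 to 35.5; unthinned 78.4% and 95.3%). Scx was detected in 4.12% and 17.6% (13.4 points, 7.12 to 19.9; unthinned 24.6% and 37.2%). These shares come from 1 random draw. As the mean over all draws the shares were 34.9% and 67.9% for Tnmd, 54.9% and 80.9% for Comp and 7.79% and 13.7% for Scx, so that the draw overstated the difference for Scx, which was 5.94 points in the mean. The difference for Mkx was 10.0 points with an interval that held 0 (-0.0991 to 19.8). As a gauge of free RNA, Tnmd was detected at 2000 UMIs in 0.593% of DMSO and 0.631% of MVC immune cells, with unthinned medians of 7295 and 8724 UMIs per cell, and Scx in 0 of 506 and 0 of 317. Comp was detected in 0.198% of DMSO and 1.58% of MVC immune cells. The summed core tendon level in immune cells was 91.1 CPM in DMSO and 200 CPM in MVC. The part of free RNA in the members' differences was not tested.

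Collagens beyond type I moved in part. Of 6 fibrillar collagens with enough UMIs 3 were higher (Col1a1, Col1a2 and Col11a2) and Col5a2, at 390 and 258 CPM, was lower with a ratio of 0.660. Col3a1 was at 123 and 118 CPM and did not move with Col1a1. Of 9 network and other collagens 6 were higher and 0 lower, with ratios of 1.71 for Col6a1, 1.61 for Col6a2, 2.02 for Col6a3, 1.69 for Col8a1, 2.13 for Col8a2 and 1.61 for Col15a1. Without the 21 cells of subcluster 6 described further on, 4 of 7 were higher, and Col6a2 and Col15a1 were not among them. Collagen VI forms the beaded filaments around tendon cells. Among 17 genes of collagen processing, Serpinh1, Pcolce, Crtap, P3h3 and Loxl2 were higher, while Lox, which cross-links collagen, and Plod2, a lysyl hydroxylase, were lower.

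Proteoglycans and adhesive proteins gave the other large ratios. Aspn had 436 UMIs in DMSO and 1516 in MVC, a ratio of 3.19 (2.86 to 3.55). Ogn (osteoglycin) was at 1735 and 3029 CPM (ratio 1.75) and Lum (lumican) at 75.4 and 175 CPM (2.33). Omd (osteomodulin) went the other way, at 76.7 and 42.5 CPM. Of 9 small leucine-rich proteoglycans 4 were higher and 1 lower, while Dcn (ratio 1.08) and Bgn (1.17) stayed inside the fold. Prg4 was also inside it in members (0.923), whereas it was at 0.558 in junction fibroblasts and 0.452 in FAPs. Among 24 adhesive and elastic matrix genes 6 were higher (Cilp2, Comp, Fbln7, Mfap4, Sparc and Spp1) and 2 lower (Cilp and Thbs1).

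Among genes with under 30% of the UMIs of the higher library in 3 cells, Mmp3 and Igf1 had the largest ratios. Spp1 had a larger one, 8.64 (5.50 to 14.3), with 89.9% of its MVC UMIs in 3 cells. Igf1 (insulin-like growth factor 1) had 99 UMIs in DMSO and 535 in MVC, from 63.8 to 316 CPM, a ratio of 4.95 (3.99 to 6.20). Igfbp4 and Igfbp5 were higher too, with Igfbp5 at 732 and 1364 CPM, while Igfbp3 was lower, at 170 and 94.5 CPM. Of the DMSO UMIs of Igfbp3, 32.3% were in 3 cells. Mmp3 (stromelysin 1, a matrix metalloproteinase) had 305 and 1651 UMIs, a ratio of 4.96 (4.39 to 5.62). Its UMIs were unevenly spread, with 27.5% of those in MVC in the 3 cells with the most. Timp3, a tissue inhibitor of metalloproteinases, was at 643 and 1124 CPM (ratio 1.75). The other genes of the 12 highest ratios were Plekha6, Clec11a, Tmed3, Thy1, Dnaja4, Sh3kbp1, Lgals1 (galectin 1, at 342 and 902 CPM) and Ssc5d, with ratios from 2.63 to 3.49.

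Several genes that respond to glucocorticoids were lower in the MVC members. Of 10 genes in the list of glucocorticoid-responsive genes and metallothioneins 5 were past the fold on the lower side, 1 (Lcn2) on the higher, and the median log2 ratio was -0.55. Serpina3n, a secreted protease inhibitor, had 584 UMIs in DMSO and 144 in MVC, a ratio of 0.226 (0.187 to 0.272). Zbtb16 was at 114 and 46.7 CPM, Tsc22d3 (the glucocorticoid-induced leucine zipper) at 131 and 62.6 CPM, Sgk1 at 309 and 182 CPM and Klf9 at 538 and 348 CPM. Fkbp5 (ratio 0.716), Mt1 (0.853) and Mt2 (0.716) lay on the same side without passing the fold, and Errfi1 lay on the other (1.24). The shift was not limited to the members. In junction fibroblasts 3 of 8 genes of this list were past the fold on the lower side and 0 on the higher (median log2 ratio -0.43). In FAPs 6 of 11 were lower and 0 higher (-0.41).

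Heat shock and chemokine genes were higher in part. Of 14 heat shock genes 12 had intervals above 1 and 3 passed the fold, with Hspa1a at 1400 and 2830 CPM, Hspb1 at 1350 and 2419 CPM and Hsph1 at 748 and 1200 CPM. Hspb8 had 66 and 42 UMIs (ratio 0.583) and its interval held 1 without the 3 highest cells, without doublets or without subcluster 6. Of 24 immediate early genes 1 (Fosl1) was past the fold. Of 12 chemokines and cytokines 6 were higher, with Ccl7 at 159 and 457 CPM, Cxcl1 at 622 and 1350 CPM, Lif at 46.4 and 112 CPM, Cxcl14 at 61.2 and 135 CPM, Cxcl16 with a ratio of 2.19 and Ccl11 at 21.3 and 102 CPM. Ccl11 and the interferon-inducible genes Ifi203, Ifi205 and Ifi211, the 3 of 5 interferon genes past the fold, led a group of 21 members described further on, and the ratio of Ccl11 turned below 1 without those cells or without called doublets. Cxcl14 had 63.8% of its MVC UMIs in 3 cells, and its interval held 1 without the 3 highest cells of each library. Il6 (570 and 529 CPM) and Ccl2 (1387 and 1248 CPM) were inside the fold.

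**Figure D3:**
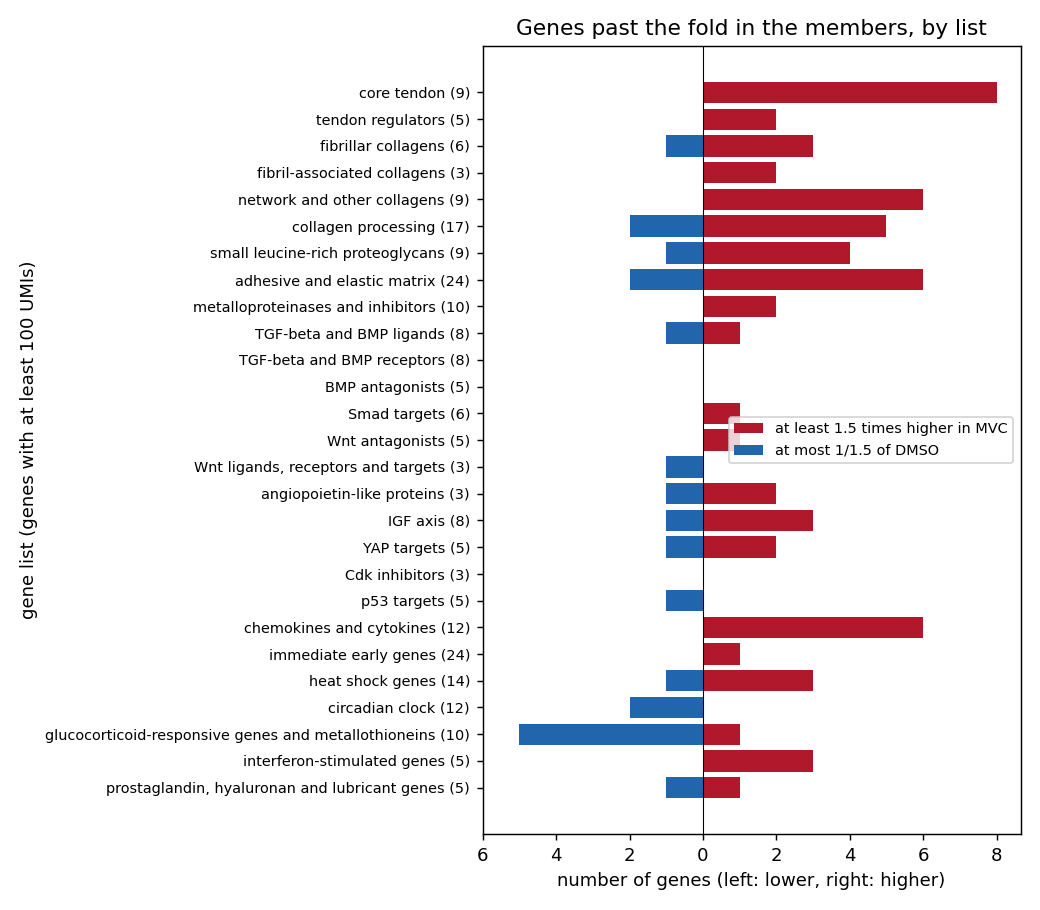
Number of genes (x axis) in each list (y axis, with the number of list genes that had at least 100 UMIs in parentheses) at least 1.5 times higher (red, right) or at most 1/1.5 as high (blue, left) in MVC as in DMSO members. Core tendon genes show 8 of 9 on the higher side, and the glucocorticoid list shows 5 of 10 on the lower side.

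Several of these ratios were shared with the other fibroblasts and several were not. In junction fibroblasts 10.3% of 4370 genes were at least 1.5 times higher and 5.58% at most 1/1.5, and in FAPs 8.39% and 2.56% of 10424 genes. Core tendon genes were higher for 6 of 9 genes in junction fibroblasts, with ratios of 3.16 for Tnmd, 3.09 for Scx and 3.47 for Col1a1. Of the 9, 1 was past the fold on the lower side there, Tnc, with a ratio of 0.591. Igf1 was higher in all 3 groups, by ratios of 4.95 in members, 3.45 in junction fibroblasts and 1.69 in FAPs. Galnt15, an enzyme of O-glycosylation, was lower in all 3, by ratios of 0.228, 0.272 and 0.249, and so were Rps27rt (0.309, 0.319 and 0.307), Wdr89 (0.308, 0.396 and 0.311) and Rpl9-ps6 (0.309, 0.238 and 0.344). The names of Rps27rt and Rpl9-ps6 mark copies of ribosomal protein genes. Whether reads of similar copies entered the counts of these genes or of Wdr89 was not tested, so their counts are uncertain. Mmp3 had ratios of 4.96 in members, 1.23 in junction fibroblasts and 0.826 in FAPs, and Mkx of 1.97, 1.05 and 0.415, the last from 38 and 16 UMIs. Ccl7 and Cxcl1, higher in members, had ratios of 0.645 and 0.756 in junction fibroblasts and of 0.715 and 0.844 in FAPs. Ntng1, Fhit, Pcsk5, 2410006H16Rik, Epb41l4aos and Mettl7a1 completed the 12 lowest ratios in members, from 0.326 to 0.398, and Ntng1 had ratios of 1.21 and 0.987 in the other groups. Differences between the groups' ratios were not tested.

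**Figure D4:**
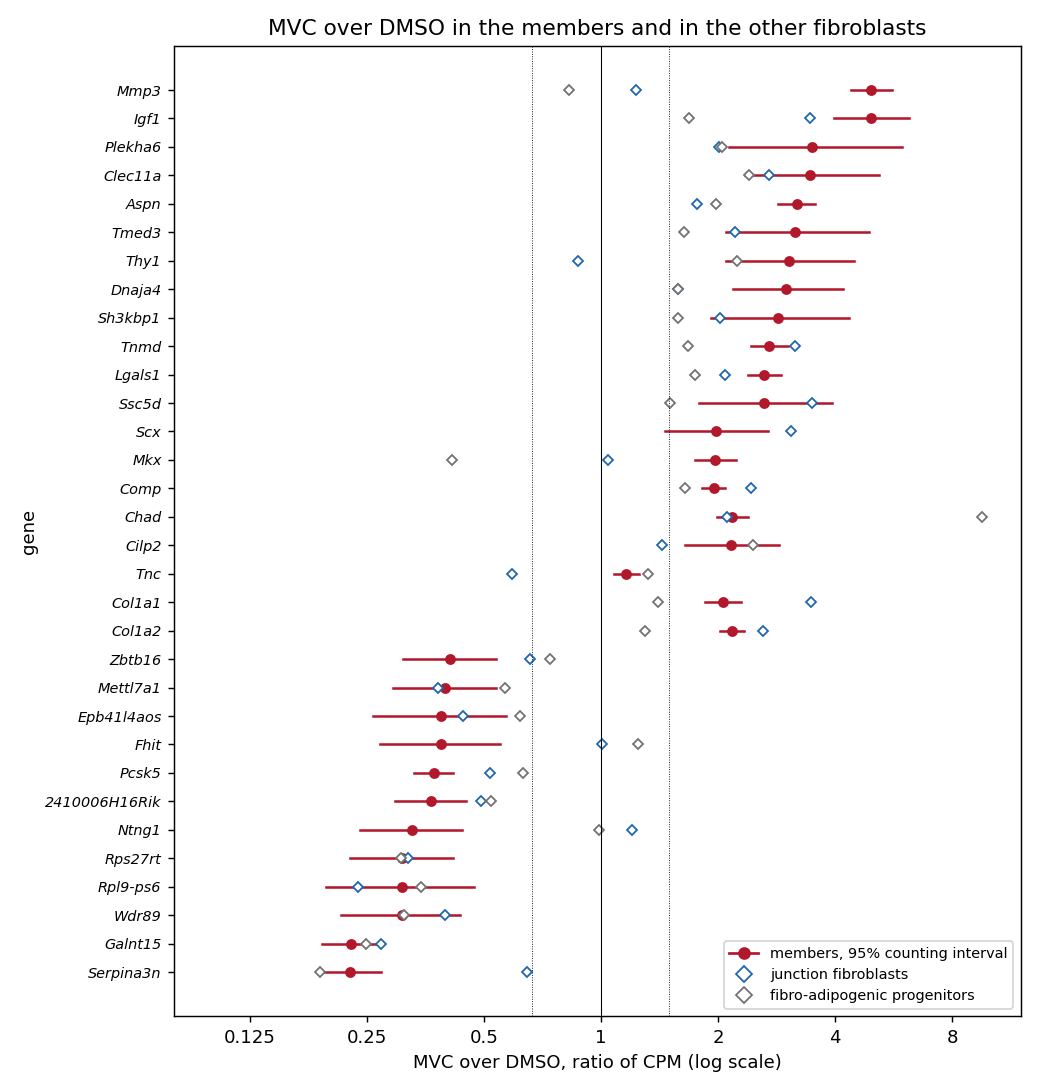
MVC over DMSO ratio of CPM (x axis, logarithmic) for the 12 highest, the core tendon and the 12 lowest genes (y axis), with red points and bars for members and their 95% counting intervals, and open diamonds for junction fibroblasts (blue) and FAPs (grey). Dotted lines mark a 1.5-fold difference. Serpina3n and Galnt15 are near 0.23 in members, Mmp3 is at 4.96 in members with its diamonds at 1.23 and 0.826, and the FAP diamonds of Chad and Cilp2 rest on 3 and 29 and on 2 and 5 UMIs.

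Regulators of senescence were measured in the same cells. Cdkn2a, the gene of the senescence regulator p16, had 0 UMIs in both libraries, which allows up to 1.93 CPM in DMSO and 1.77 CPM in MVC (3 counts). Cdkn1a (p21) was at 271 CPM in DMSO and 184 CPM in MVC, a ratio of 0.677 (0.583 to 0.786) that did not pass the fold. It passed the fold in 4 of 5 alternatives, which were leaving out the 3 highest cells of each library, doublets or subcluster 6, and averaging each cell's own CPM. At 2000 UMIs per cell it was detected, as the mean over all possible draws, in 34.1% of DMSO and 22.1% of MVC members, and without thinning in 66.1% and 45.0%. The single draw used for the other shares gave 24.1% and 23.9%, a DMSO value far below that mean, where the spread between draws was 2.69 points, so no statement rests on it. Without subcluster 6, Cdkn1a and Cdkn1b passed the fold on the lower side. None of the 3 Cdk inhibitor genes with enough UMIs and 1 of 5 p53 targets, Gadd45a, passed the fold (on the lower side).

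The members fell into 6 subclusters when grouped by expression without the choosing genes. They are described by their leading genes with no test, and their sizes are not compared between libraries because genes that differ between the libraries took part in the grouping. Subcluster 1 (69 DMSO and 101 MVC cells) was led by Coch (cochlin), Saa3 and Timp1. Subcluster 2 (27 and 30 cells) was led by Pde4c, Mast3 and Il12rb1 and also carried the endothelial gene Pecam1 at 118 CPM against 11.9 CPM in the other members. Subcluster 3 (37 and 11 cells) was led by Spp1 (osteopontin), Lonrf3 and Tob1. Over all members Spp1 had 21 UMIs in DMSO, and 89.9% of its MVC UMIs were in 3 cells. Subcluster 4 (12 and 25 cells) was led by the immediate early genes Gadd45g, Btg2, Zfp36 and Jun, with Hspa1a among its leading genes. Subcluster 5 (20 and 9 cells) was led by Hecw1 and Slc38a1 and held Igfbp5 at 3185 CPM against 818 CPM and Wif1 at 875 CPM against 229 CPM in the other members. Its cells were rich in UMIs, with medians of 12087 and 11530. Subcluster 6 (6 and 15 cells) was led by Ifi207, Ifi205, Mndal, Ifi211 and Ccl11 and by Dpt and Dpep1. Its median UMI counts were 14191 and 13502, and 2 of its DMSO and 7 of its MVC cells were called doublets. Of its leading genes, Ifi203, Ifi204, Ifi205, Ifi211 and Ccl11 were called lower in members than in FAPs. It held Pdgfra at 163 and 174 CPM, against at most 56.9 and 71.8 CPM in the other subclusters. Scx had 0 and 2 UMIs there, while Fmod was at 2314 and 2747 CPM and Tnmd at 163 and 497 CPM. Whether FAPs or their RNA took part in these cells was not tested.

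The difference in core tendon genes was found within subclusters as well as between libraries, but not in each. In subcluster 1 Tnmd was at 269 CPM in DMSO and 964 CPM in MVC, Comp at 693 and 1744 CPM, and Col1a1 at 291 and 682 CPM. In subcluster 2 Tnmd was at 478 and 1081 CPM, while Col1a1 was at 1019 and 1023 CPM. Subcluster 3, with 11 MVC cells, was mixed, as Tnmd was at 306 and 230 CPM and Mkx at 341 and 175 CPM, while Comp was at 1164 and 1981 CPM and Chad at 536 and 832 CPM. Subcluster 5, with 9 MVC cells, was mixed too, as Tnmd was at 239 and 735 CPM, while Mkx was at 235 and 162 CPM and Col1a1 had 33 and 1 UMIs. With the subclusters weighted alike in both libraries the ratios were 2.59 for Tnmd, 1.81 for Scx, 1.95 for Mkx, 2.14 for Comp, 2.20 for Chad, 1.64 for Col1a1 and 1.80 for Col1a2. Without subcluster 6 the count of core tendon genes past the fold stayed at 8 of 9, and the glucocorticoid list stayed at 5 of 10 lower, while 0 of 2 interferon genes were then past the fold. In MVC most Mmp3 UMIs were in subcluster 1. It had 88 UMIs in DMSO and 1555 in MVC there, 107 and 54 in subcluster 4 and 107 and 0 in subcluster 3.

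**Figure D5:**
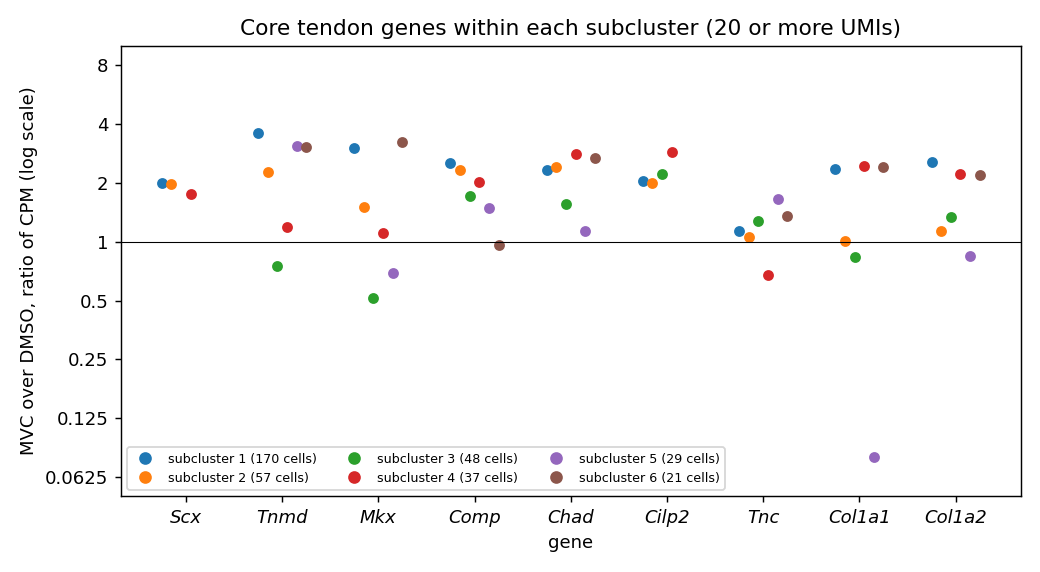
MVC over DMSO ratio of CPM (y axis, logarithmic) of the 9 core tendon genes (x axis) within each of the 6 subclusters of members (colours), shown where a gene had at least 20 UMIs in the subcluster. Most points lie above 1. Below 1 lie those of subclusters 3 and 5 for Mkx and Col1a1. The points of subcluster 3 for Tnmd, 4 for Tnc, 5 for Col1a2 and 6 for Comp also lie below.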

How the data were processed

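Live mononuclear cells of limb muscle were measured by droplet single-cell RNA-seq, with 1 library of DMSO-treated and 1 of MVC-treated mice, grouped by the treatment given per the labels. The deposited values were raw UMI counts per gene and barcode, made by the authors with Cell Ranger 7.0.0 on mm10 per the submitters' processing notes, which also list Seurat 5.0.1. The DMSO library held 5812 barcodes and 39150511 UMIs and the MVC library 6047 barcodes and 36063575 UMIs, over 32285 genes. No correction for free RNA was made.

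Cells, rule and groups are as described above. The members and lists were chosen with earlier results of these data known. Doublets were scored against 2 simulated doublets per cell with 50 neighbours, called at 0.8% per 1000 cells, and kept. Ratios carry exact conditional 95% intervals, shares exact (Clopper-Pearson) and differences of shares Newcombe intervals. Shares at equal depth used 1 random draw of 2000 UMIs per cell, with the exact mean over all draws given beside them. List medians used a pseudocount of 10 CPM. Genes named for MVC against DMSO were the 12 highest and 12 lowest ratios with an interval excluding 1, outside rule, mitochondrial, Xist, Tsix, Y-linked, haemoglobin and immunoglobulin genes, and with under 30% of the UMIs of the higher library in 3 cells. For the cell groups, the 12 largest and 8 lowest called log2 folds with at least 50 CPM in both libraries of the higher group were named, with list genes past the call or fold, genes of highest level, and Cdkn1a and Cdkn2a. Some genes that this rule named are not reported here. The cell-group fits used edgeR 4.0.16 (TMM, filterByExpr) on 6 sums in R 4.3.3, leaving the choosing genes out, and were tested on simulated data. The spread between the 2 libraries in that fit includes the treatment. DESeq2 1.42.0 was an alternative. The library block pairs sums of the same mice and droplet run. Members were clustered with Leiden (leidenalg 0.10.2, resolution 0.5) on 2000 variable genes, 20 components and 15 neighbours. Promoter sequences are RefSeq, GRCm38.p6.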

Additional observations from a re-analysis of the deposited data

Results flagged for a closer look

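Named genes, core tendon genes and list genes past the fold were compared between the fibroblast groups, where a group had at least 100 UMIs of the gene. Those below had a counting interval of the MVC over DMSO ratio above 1 in members and below 1 in junction fibroblasts or fibro-adipogenic progenitors (FAPs), or the reverse. Each rests on 1 library per treatment, and the difference between the groups was not tested.

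Matrix and protease genes came first. Mmp3, a matrix metalloproteinase, had a ratio of 4.96 in members and of 0.826 (0.718 to 0.949) in FAPs. Timp3, a metalloproteinase inhibitor, had a ratio of 1.75 in members and of 0.902 (0.825 to 0.987) in junction fibroblasts and 0.921 (0.892 to 0.951) in FAPs. Spp1, osteopontin, had a ratio of 8.64 in members and of 0.0964 (0.0585 to 0.151) in FAPs, with 89.9% of its MVC UMIs of members in 3 cells. Col5a2, a chain of collagen V, had a ratio of 0.660 in members and of 1.32 (1.26 to 1.38) in FAPs. Tnc, tenascin C, had a ratio of 1.16 in members and of 0.591 (0.539 to 0.648) in junction fibroblasts.

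Chemokines and cytokines formed the next group. By gene, 3 cells held 36.6% of the MVC UMIs of members for Ccl7, 63.8% for Cxcl14 and 40.2% for Lif. Ccl7, a chemokine, had a ratio of 2.87 in members and of 0.645 (0.549 to 0.756) in junction fibroblasts and 0.715 (0.693 to 0.737) in FAPs. Cxcl1, a chemokine, had a ratio of 2.17 in members and of 0.756 (0.697 to 0.819) in junction fibroblasts and 0.844 (0.833 to 0.856) in FAPs. Cxcl14 had a ratio of 2.21 in members and of 0.823 (0.684 to 0.991) in junction fibroblasts. Ccl11 had a ratio of 4.80 in members and of 0.881 (0.859 to 0.903) in FAPs, but its ratio in members turned below 1 without the 3 highest cells, doublets or subcluster 6. Lif, a cytokine, had a ratio of 2.41 in members and of 0.414 (0.360 to 0.474) in FAPs.

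Interferon-inducible genes also led subcluster 6. By gene, 3 cells held 50% of the MVC UMIs of members for Ifi203, 74.0% for Ifi205 and 43.8% for Ifi211. Ifi203 had a ratio of 2.98 in members and of 0.461 (0.363 to 0.582) in junction fibroblasts. Ifi205 had a ratio of 1.61 in members and of 0.726 (0.567 to 0.928) in junction fibroblasts and 0.675 (0.656 to 0.694) in FAPs. Ifi211 had a ratio of 2.05 in members and of 0.771 (0.739 to 0.804) in FAPs.

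The others were of several kinds. Igfbp4, a binding protein of insulin-like growth factors, had a ratio of 1.82 in members and of 0.851 (0.822 to 0.880) in FAPs. Inhba, an activin subunit, had a ratio of 1.65 in members and of 0.885 in FAPs, with an interval below 1. Of its MVC UMIs in members, 32% were in 3 cells. Lgr4 had a ratio of 0.615 in members and of 1.11 in FAPs, with an interval just above 1. Fosl1, an AP-1 subunit, had a ratio of 1.60 in members and of 0.609 (0.567 to 0.654) in FAPs. Lcn2, lipocalin 2, had a ratio of 1.68 in members and of 0.573 (0.419 to 0.780) in FAPs. Ptgs2, the inducible cyclooxygenase, had a ratio of 1.54 in members and of 0.578 (0.474 to 0.703) in junction fibroblasts and 0.721 (0.700 to 0.742) in FAPs. Fhit had a ratio of 0.388 in members and of 1.25 (1.16 to 1.34) in FAPs.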

How the results depend on the processing

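The number of genes past the 1.5-fold in members changed with the UMI minimum. It was 701 higher and 521 lower with at least 50 UMIs, 102 and 122 with at least 300 UMIs, and 224 and 193 in subcluster 1 alone, a setting chosen after seeing the data, as was leaving out subcluster 6. The number tested was 6564, 1873 and 2437 against 4462, and the balance turned to more lower genes at 300 UMIs, without doublets (299 and 322) and without subcluster 6 (295 and 313); the cause was not tested. Of 79 list genes past the fold, 62 were past it in every alternative that gave a value, and 17 were not in 1 or more, among them Col5a2, Col14a1, Col16a1, Lox, Cilp, Angptl4 and Fosl1. The 62 include Kera and Col11a1, which the rule used and for which no alternative was run. Against junction fibroblasts, edgeR called 454 higher and 400 lower without a filter on low counts, and 171 and 147 without the library as a block, whose cause was not tested. No other count moved by over 1.5 times. List medians (log2) that moved by over 0.2 were fibrillar collagens (0.68), Cdk inhibitors (-0.0087) and p53 targets (0.013) with genes of at least 20 UMIs, chemokines and cytokines (0.36) and interferon genes (0.37) without doublets, and interferon genes (0.16) and angiopoietin-like proteins (0.48) without subcluster 6. The interferon medians rest on 3 genes without doublets and on 2 without subcluster 6, against 5 in the main setting. The difference in detection was 5.45 points for Scx when thinned to 1000 UMIs, and 23.1 for Tnmd and 16.9 for Comp without thinning, and 5.94 points for Scx as the mean over all draws of 2000 UMIs, added after seeing that 1 draw lay far from that mean. Ccl11 reversed, with log2 ratios of -0.45 without the 3 highest cells, -2.67 without doublets and -2.62 without subcluster 6. Cxcl13, called higher than in junction fibroblasts, had a log2 fold of -0.15 without doublets, and Mstn, called higher than in progenitors, -0.13 without the MVC library and 2.91 without the DMSO library. The block changed no direction of a named gene, and without it 20 of 66 named genes against junction fibroblasts and 17 of 163 against progenitors had an adjusted p (edgeR) above the threshold. Leaving out a library gave values with no test. The intervals hold counting error, and the spread between mice was not measured.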

Other observations

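The signalling lists are given beside the share of all genes tested that passed the 1.5-fold in members, 7.69% higher and 6.86% lower. Of 8 ligands of the TGF-beta and BMP families, Inhba (an activin subunit) was at 98.6 CPM in DMSO and 162 CPM in MVC, a ratio of 1.65 (1.35 to 2.02), and Tgfb3 at 98.6 and 47.8 CPM, a ratio of 0.485 (0.366 to 0.639). Of 8 receptors and 5 BMP antagonists 0 passed the fold, and of 6 Smad targets 1 did, Id2, at 59.3 and 129 CPM. Of 5 Wnt antagonists Sfrp2 was higher (ratio 2.54, 1.82 to 3.60), and Lgr4, an R-spondin receptor, was lower (0.615, 0.470 to 0.802), though inside the fold without the 3 highest cells of each library. Of the MVC UMIs of members, 3 cells held 66.2% for Sfrp2 and 32% for Inhba.

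Among angiopoietin-like genes other than Angptl7, Angptl1 (ratio 1.84) and Angptl2 (2.35) were higher and Angptl4 (0.635) was lower, where without the 21 cells of subcluster 6 only Angptl2 of these 3 stayed past the fold. Of 5 YAP targets, genes induced by mechanical load among other signals, Ankrd1 had a ratio of 2.60 (1.94 to 3.53) and Ccn1, inside the fold without doublets or subcluster 6, was at 596 and 939 CPM, while Amotl2 was at 232 and 121 CPM. Of the MVC UMIs of Ankrd1, 36.4% were in 3 cells. Of 12 circadian clock genes Arntl (ratio 0.472) and Cry2 (0.651) were lower, and Cry2 was inside the fold without doublets or subcluster 6. Of 5 prostaglandin, hyaluronan and lubricant genes Ptgs2, the inducible cyclooxygenase, was higher, at 340 and 523 CPM, and Has1, a hyaluronan synthase, was lower (0.483, 0.412 to 0.566), though not past the fold without subcluster 6. Of the DMSO UMIs of Has1, 43.1% were in 3 cells.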
